A study of Mus musculus with 10 samples.

Results

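The nuclei described here, called Prkcd/Slc17a6 nuclei, are those of the mouse hippocampal libraries whose RNA carried a combination of genes known from glutamatergic neurons of the thalamus. A nucleus was included when 5 genes (Prkcd, Slc17a6, Tcf7l2, Lef1 and Ntng1) gave at least 4 UMIs in total, from at least 3 of these genes, and when Prkcd or Lef1 was seen. A UMI, or unique molecular identifier, marks 1 captured RNA molecule. This gate held 165 of 5658 hippocampal nuclei (2.92%) and of 11624 nuclei in all (1.42%). The nuclei were thus selected on their measured UMI counts of these 5 genes, so the levels of the 5 are given only as a description, and the 5 were left out of every test.

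Neurons of the dorsal thalamus relay sensory and motor signals to the cortex. They release glutamate, and most of them load their vesicles through VGLUT2, the product of Slc17a6, whereas hippocampal pyramidal and granule neurons and most cortical excitatory neurons use VGLUT1, the product of Slc17a7. Prkcd encodes a protein kinase C, Ntng1 encodes netrin-G1, an adhesion protein of thalamocortical axons, and Tcf7l2 and Lef1 encode transcription factors that act with beta-catenin in Wnt signalling. Tcf7l2 is known as a regulator of thalamic identity, and the 2 factors are also active in brain endothelial cells. Thalamic relay neurons are known for switching between single-spike and burst firing, for which T-type calcium channels are needed. The thalamus lies beneath the hippocampus in the mouse brain.

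Single nuclei were profiled with DroNc-seq, a droplet method that pairs each nucleus with a barcoded bead, from archived frozen brain of C57BL/6 mice with no treatment named. Hippocampus and prefrontal cortex were dissected, and 5 libraries of each region are used here. Libraries 0a and 0b of a region carry the same number in their titles and were summed, which gave 4 hippocampal units, numbered 0 to 3. The labels do not tie these numbers to mice and give no age, so p-values measure only the spread between units, which may be technical. Hippocampal units held 1443244 to 3834186 UMIs over 1055 to 2374 nuclei. No barcode of a Prkcd/Slc17a6 nucleus was found in another hippocampal library.

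The Prkcd/Slc17a6 nuclei were unevenly spread over the libraries. They made up 63 of 1070 nuclei in hippocampal library 0a (5.89%, exact 95% interval 4.55% to 7.47%) and 61 of 1304 in library 0b (4.68%, 3.60% to 5.97%). The share was 1.52% in library 1 (16 of 1055, 0.869% to 2.45%), 1.22% in library 2 (13 of 1062, 0.653% to 2.08%) and 1.03% in library 3 (12 of 1167, 0.532% to 1.79%). The intervals, which cover counting error only, of libraries 0a and 0b lay above those of the other 3. Unit 0 thus held 124 of the 165 nuclei, or 75.2%, against 42.0% of all hippocampal nuclei. The same gate passed 3 of 5966 cortical nuclei (0.0503%), all in unit 0, so every hippocampal unit lay above every cortical unit.

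**Figure D1:**
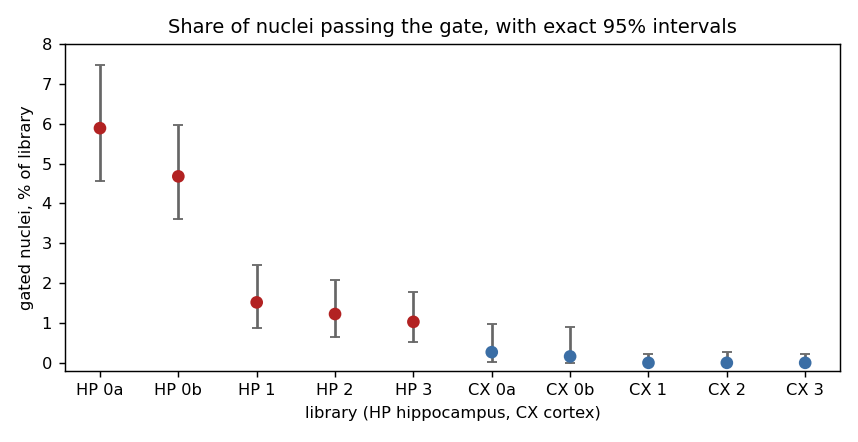
Share of nuclei passing the gate in each library (y axis, percent of the library's nuclei; points, with exact 95% binomial intervals as bars) for 5 hippocampal (red) and 5 cortical (blue) libraries. Hippocampal libraries 0a and 0b sit at 5.89% and 4.68%, the other hippocampal libraries at 1.03% to 1.52%, and cortical libraries 1, 2 and 3 at 0.

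All 5 gate genes contributed. Ntng1 was seen in 90.9% of the nuclei, Prkcd in 90.3%, Tcf7l2 in 81.8%, Slc17a6 in 72.7% and Lef1 in 60.0%. All 5 genes were seen together in 49 nuclei, 4 of them in 60 and 3 in 56, and the median nucleus had 10 gate UMIs, with up to 55. The Prkcd/Slc17a6 nuclei were deep: their median was 3308 UMIs (563 to 32107), against 1766 in the comparison nuclei introduced below, and a gate on UMIs favours deep nuclei. At the edge of the gate, 12 nuclei had exactly 4 gate UMIs, and 9 nuclei just outside had 3 UMIs from 3 genes. Summed Rora RNA, which the gate does not read, was 183 CPM (UMIs scaled to the library total) in the 12, 654 in the 9 outside and 849 in the 153 nuclei with 5 or more gate UMIs. It was 434 CPM in 22 nuclei that failed only for want of a Prkcd or Lef1 UMI and 236 CPM in 27 that had enough UMIs but from 2 genes.

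The label was set beside 15 genes known from thalamic relay neurons that the gate does not use. This list was written with earlier results of these data known, so it describes the nuclei and is no independent check. At least 4 UMIs from at least 3 of them were found in 136 of the 165 Prkcd/Slc17a6 nuclei (82.4%), by unit in 108 of 124, 8 of 16, 11 of 13 and 9 of 12. The same held for 42 of 1307 other hippocampal nuclei with a Slc17a7 UMI (3.21%). After each nucleus was thinned to 600 UMIs, 85 of 164 Prkcd/Slc17a6 nuclei and 23 of 1178 others still had 2 or more relay UMIs. Genes of the neighbouring habenula were nearly absent, with 13 UMIs over all 165 nuclei and none of Tac2, Gpr151 or Chrnb3. The 13 midbrain genes summed to 47 UMIs, or 71.6 CPM against 17.4 CPM in the other Slc17a7 nuclei, with 8 of them at 0. Most of these UMIs came from Gata2 (22) and the glycine receptor gene Glra1 (17), which could be tested only without the endothelial-marker nuclei described below, and was then higher (4.14 on the log2 scale, edgeR adjusted p 4.18e-09). Slc17a7 itself was seen in 35 nuclei (21.2%), at a median depth of 3308 UMIs, and in 18.3% of 622 oligodendrocyte nuclei, a cell type that should lack it, at a median of 967.5 UMIs.

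Some nuclei in the gate went against the label. Endothelial markers (at least 4 UMIs from at least 3 of Flt1, Cldn5, Pecam1, Ly6c1 and Slco1a4) were found in 9 of the 165, of which 5 were in unit 0, 2 in unit 1 and 2 in unit 3. These 9 nuclei carried 39 to 289 endothelial UMIs, while no other nucleus in the gate had more than 2. All 9 had a Lef1 UMI and 3 had a Slc17a6 UMI. They were deep, with a median of 8052 UMIs, and held 15.1% of all UMIs of the gated nuclei; 6 of them also met the relay criterion. Marker UMIs of some non-neuronal class were present in 48 nuclei (29.1%), against 16.4% of the comparison nuclei, and the most frequent were oligodendrocyte markers, in 36. A doublet score against simulated pairs called 12 of the 165 (7.27%), against 1.63% of all hippocampal nuclei. Several results are therefore also given without the endothelial-marker nuclei.

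**Figure D2:**
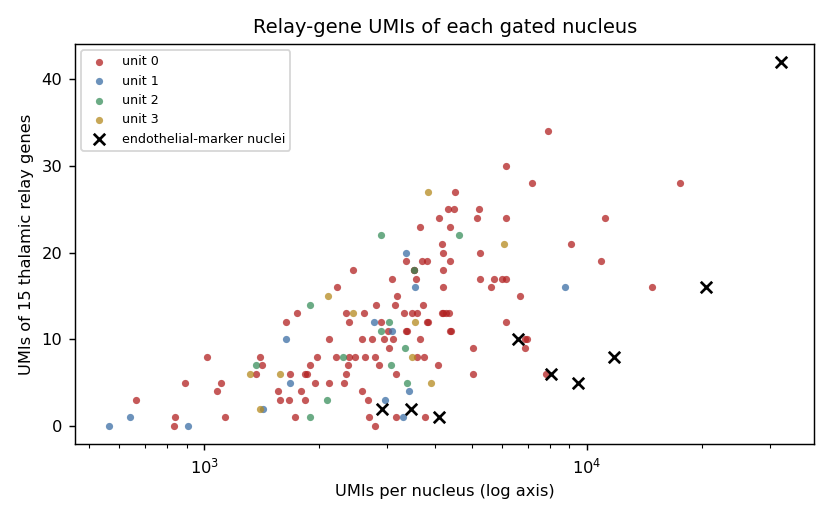
UMIs of 15 thalamic relay genes (y axis) against all UMIs (x axis, log scale) in each of the 165 gated nuclei, coloured by unit, with the 9 endothelial-marker nuclei as crosses. The median nucleus has 10 relay UMIs and the highest 42, and deeper nuclei have more.

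The first comparison set the Prkcd/Slc17a6 nuclei against the other 1307 hippocampal nuclei with at least 1 Slc17a7 UMI, taken to stand for the resident VGLUT1 neurons. This cut also admitted the 114 of 622 oligodendrocyte nuclei that had a Slc17a7 UMI, so the set is not purely neuronal. Only 463 of the 1307 had 2 or more Slc17a7 UMIs. Counts were summed per unit and set and tested with edgeR's quasi-likelihood test, with the unit as a block, so each unit was compared within itself. Of 8791 genes tested, 499 (5.68%) were higher and 577 (6.56%) lower in the Prkcd/Slc17a6 nuclei at an adjusted p under 0.05, or 12.2% in either direction, which is the background for every count of called genes below. Without unit 0, which holds most of the nuclei, 222 were higher and 285 lower of 6228, and without the endothelial-marker nuclei 326 and 507 of 8327. Levels below are CPM of summed UMIs, scaled to the effective library size, in the order of units 0, 1, 2 and 3.

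The genes with the largest folds among those higher in every unit were Mrvi1, Rgs16, Abhd12b, Shox2, Vipr2, Synpo2, Adamts19, Nexn, Zic1, Grid2ip, Slitrk6 and Tnnt1. Mrvi1, which encodes a substrate of cGMP-dependent kinase and lies at chr7:110868266-110982461 (mm10, minus strand), had 73.8, 60.6, 51.2 and 43.9 CPM in the Prkcd/Slc17a6 nuclei. In the other Slc17a7 nuclei it was 0.641 CPM in unit 0 and listed at 0 in the rest, a single UMI in all. The fitted difference was 6.73 ± 0.76 (log2, SE) with an edgeR adjusted p of 1.13e-16, but its size rests on that single UMI. Rgs16, a brake on G-protein signalling, had 144, 202, 76.8 and 87.8 CPM against 3.85, 1.96, 0 and 1.94 (5.57 ± 0.56, adjusted p 2.13e-20). Nexn, an actin-binding protein gene, had 263, 162, 512 and 242 CPM against 10.3, 7.86, 0 and 9.71 (5.09 ± 0.40, adjusted p 9.4e-35). The sets did not overlap in any unit for these genes, and the remaining 9 differed by 4.74 (Tnnt1) to 5.56 (Abhd12b). Without unit 0 the differences of Rgs16 and Nexn were 6.16 and 5.53, and those of Shox2, Synpo2, Zic1 and Slitrk6 were 4.99, 5.23, 5.96 and 4.33. Mrvi1, Abhd12b, Vipr2, Adamts19, Grid2ip and Tnnt1 could not be tested without unit 0.

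Of 16 listed transcription factors of the diencephalon, the brain part that holds the thalamus, 9 could be tested and these 9 were higher. A gene was tested when enough units reached 19.4 CPM, and 8 of the 9 passed only through their level in the Prkcd/Slc17a6 nuclei, so this count is no support for the list. Over all 16 factors the summed level was 1785, 1658, 2148 and 1686 CPM in units 0, 1, 2 and 3 against 232, 140, 109 and 145 CPM. Without unit 0 only 5 factors could be tested, and 4 of them were higher. Rora, a nuclear receptor gene at chr9:68653786-69388246 (mm10, plus strand), had 834, 687, 794 and 725 CPM against 84.6, 35.4, 35.2 and 40.8 (3.91 ± 0.26, adjusted p 2.03e-49), the most even of these genes over units. Shox2, a homeobox gene at chr3:66971727-66981771 (minus strand), had 184, 182, 256 and 220 CPM against 1.92, 9.82, 4.14 and 5.83 (5.45 ± 0.48, adjusted p 1.83e-27). Zic1, a zinc-finger factor, had 242, 303, 410 and 198 CPM against 13.5, 7.86, 6.21 and 0 (4.99 ± 0.39, adjusted p 6.29e-34), and its relative Zic4 differed by 3.02 ± 0.53. Rorb (2.57 ± 0.44), Foxp2 (2.42 ± 0.54) and Lhx9 (1.89 ± 0.45) were also higher in every unit, though Lhx9 did not pass without unit 0 (1.16, adjusted p 0.329). Foxp2 and Zic4 could not be tested without unit 0. Foxp2 was at 96.5 CPM in unit 0 and only at 20.2 to 25.6 CPM, very few UMIs, in the other units. Ebf1 (3.14 ± 0.52) and Nr2f2 (1.81 ± 0.56) could not be tested without the endothelial-marker nuclei, and Nr2f2 did not pass without unit 2 (1.76, adjusted p 0.066). Gbx2, a factor of the developing thalamus, was seen in 4 of the 165 nuclei and was too sparse to test. By nucleus, Rora was seen in 127 (77.0%), Zic1 in 83 and Shox2 in 71, against 9.41%, 1.99% and 0.765% of the other Slc17a7 nuclei.

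Of 15 tested transcription factors of the telencephalon, from which hippocampus and cortex develop, 8 were lower, 1 was higher and 6 did not pass, with a median difference of -1.59 against -0.06 over all genes tested. Zbtb20, a zinc-finger factor of hippocampal identity, had 800, 424, 128 and 571 CPM against 1596, 3331, 3162 and 3281 (-2.41 ± 0.22, adjusted p 3.48e-24). Bcl11a, a factor of cortical and hippocampal projection neurons, had 30.3, 40.4, 51.2 and 22.0 CPM against 249, 257, 275 and 280 (-2.96 ± 0.37, adjusted p 3.21e-13). Neurod2 and Neurod6, bHLH factors of excitatory telencephalic neurons, both differed by -2.70, and neither exceeded 41.6 CPM in any unit of the Prkcd/Slc17a6 nuclei. Bcl11b, Zbtb18 and Fezf2 were lower too, but Fezf2 did not pass without unit 2 (-1.89, adjusted p 0.066) or unit 3 (-1.83, adjusted p 0.0648). Summed over oligodendrocyte nuclei, a cell type that should lack them, Neurod2 was at 87.0 CPM and Bcl11a at 131, above their levels in the Prkcd/Slc17a6 nuclei. Not every telencephalic gene was lower. Cux2, an upper-layer cortical factor, was higher by 1.33 ± 0.42 (adjusted p 0.0175), but the sets overlapped, and the other Slc17a7 nuclei of unit 0 had 103 CPM and those of units 1, 2 and 3 had 17.7, 10.3 and 15.5. Its call was lost without unit 1, 2 or 3 (1.23, 0.70 and 1.02), but without unit 0 the difference was larger and passed (3.04, edgeR adjusted p 9.2e-06). Prox1, the granule-cell factor of the dentate gyrus, did not pass (-0.01 ± 0.33), with 157, 80.9, 205 and 0 CPM against 109, 132, 147 and 122, and neither did Cux1, Mef2c, Neurod1, Satb1 or Bhlhe22.

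**Figure D3:**
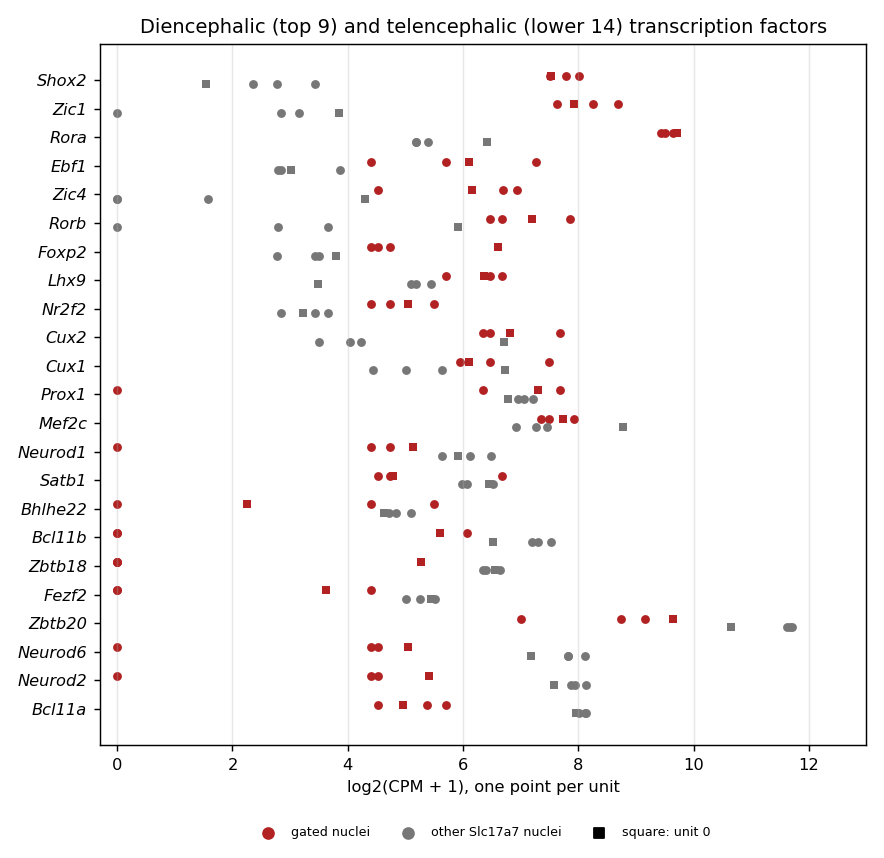
Level of 9 diencephalic and 14 telencephalic transcription factors as log2(CPM + 1) (x axis), 1 point per unit, in gated nuclei (red) and other Slc17a7 nuclei (grey), with unit 0 as squares. The 9 diencephalic factors at the top have all red points above all grey points, and Zbtb20, Bcl11a, Neurod2 and Neurod6 have all red points below.

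Of the 15 relay genes, 14 were higher and none lower, though 12 of the 15 could be tested only through their level in the Prkcd/Slc17a6 nuclei. Their summed level was 2863, 2372, 3828 and 2795 CPM against 397, 298, 302 and 292 CPM. Amotl1, of the angiomotin family, had 416, 465, 666 and 373 CPM against 19.9, 23.6, 6.21 and 19.4 (4.67 ± 0.31, adjusted p 1.8e-47). Plekhg1, a guanine exchange factor gene, had 405, 263, 333 and 285 CPM against 12.2, 17.7, 12.4 and 11.7 (4.65 ± 0.36, adjusted p 8.03e-36). Plcb4, the phospholipase C that acts downstream of metabotropic glutamate receptors in relay neurons, had 428, 243, 487 and 725 CPM against 83.3, 49.1, 24.8 and 48.5 (3.05 ± 0.28, adjusted p 2.77e-25). All these genes were apart in every unit. The exception in the list was Calb1, encoding calbindin, at 132, 101, 76.8 and 43.9 CPM against 108, 74.6, 151 and 111 (-0.08 ± 0.34, adjusted p 0.934).

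Within the Prkcd/Slc17a6 nuclei, some relay genes were seen in separate nuclei. Tnnt1, a troponin gene used as a marker of primary sensory relay nuclei, was seen in 32 nuclei, Necab1 in 37 and Calb2, encoding calretinin, in 29. No nucleus held Tnnt1 and Calb2 together, 6 held Tnnt1 and Necab1, and 8 held Necab1 and Calb2. None of the pair Tnnt1 and Calb2 was seen in 104 nuclei. At 1 or few UMIs per gene these counts describe detection, not presence, and they were not tested. Unit 0 supplied 24 of the 32 Tnnt1 nuclei and 25 of the 29 Calb2 nuclei.

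Because the gate contains Tcf7l2 and Lef1, the promoters of higher genes were searched for the letters CTTTGAT and CTTTGTT, the core that factors of this family bind, on both strands. The sequences were RefSeq windows around annotated gene starts on GRCm38.p6. These letters occurred in 6.01% of the windows of the genes higher in Prkcd/Slc17a6 nuclei, 6.04% of the windows of all genes tested and 9.33% of all 32851 windows, so the share among higher genes was near the background. Of the 12 genes with the largest folds, 10 had a window in the table, and Nexn and Adamts19 did not. The windows below show the gene with the largest fold, the Wnt ligand with the largest fold and a homeobox gene whose window holds no match, with matches in capitals and each strand read from 5′ to 3′. They are, in order, at chr7:110946138-110946437 (minus strand), chr11:103773925-103774224 (plus strand) and chr3:66981722-66982021 (minus strand). A match describes letters only and is not a binding site.
Mrvi1: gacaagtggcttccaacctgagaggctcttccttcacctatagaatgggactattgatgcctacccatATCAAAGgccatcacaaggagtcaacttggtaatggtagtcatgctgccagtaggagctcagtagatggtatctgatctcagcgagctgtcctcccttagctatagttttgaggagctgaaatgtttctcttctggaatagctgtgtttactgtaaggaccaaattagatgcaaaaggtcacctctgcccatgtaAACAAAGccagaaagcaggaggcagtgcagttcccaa
Wnt3: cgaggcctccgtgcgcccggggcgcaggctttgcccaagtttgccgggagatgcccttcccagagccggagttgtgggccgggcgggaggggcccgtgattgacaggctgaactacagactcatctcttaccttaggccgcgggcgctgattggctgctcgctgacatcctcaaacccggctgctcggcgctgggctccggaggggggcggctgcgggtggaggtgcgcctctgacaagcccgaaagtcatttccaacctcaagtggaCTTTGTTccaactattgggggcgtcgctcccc
Shox2: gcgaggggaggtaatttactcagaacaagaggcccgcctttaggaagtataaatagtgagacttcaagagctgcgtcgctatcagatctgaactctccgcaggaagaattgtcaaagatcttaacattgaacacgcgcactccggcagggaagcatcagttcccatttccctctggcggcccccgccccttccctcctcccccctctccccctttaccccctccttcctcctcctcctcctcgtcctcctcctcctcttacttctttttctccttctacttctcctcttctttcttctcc
The Mrvi1 window holds ATCAAAG and AACAAAG, at -182 and 13 bases from the start, and the Wnt3 window holds CTTTGTT at 18 bases. Mrvi1 has another annotated start whose window holds none.

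Wnt genes were sparse. Of 27 Wnt ligands and receptors, 6 could be tested and 1, Wnt3, was called, at 75.7, 40.4, 179 and 22.0 CPM against 3.85, 1.96, 8.28 and 0 (4.32 ± 0.57, adjusted p 2.71e-12). However, 3 of the 6, Wnt3 among them, could be tested only through their level in the Prkcd/Slc17a6 nuclei. Over all 27, 15 had a higher pooled level in these nuclei and 11 a lower one. For Wnt3 alone among the called genes of this list, every unit of the Prkcd/Slc17a6 nuclei was above every unit of the others. Lgr4, an R-spondin receptor gene, was also called once the endothelial-marker nuclei were out (1.33, adjusted p 0.0384), and neither of the 2 Wnt genes testable without unit 0 was called. Among 19 tested genes of the beta-catenin pathway and its targets, 1 was higher and 1 lower. The higher one, Ctnnb1, which encodes beta-catenin, was 1.76 ± 0.29 (adjusted p 8.89e-08) with all nuclei and 0.61 (adjusted p 0.418) without the endothelial-marker nuclei. The lower one was Dkk3, of the Dickkopf family (-2.09 ± 0.38, adjusted p 1.07e-06).

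The genes of burst firing changed in unlike directions. Cacna1g, encoding the T-type channel Cav3.1 that thalamic bursts need, at chr11:94408391-94474198 (mm10, minus strand), had 223, 263, 359 and 242 CPM against 127, 70.7, 43.4 and 44.7 (1.74 ± 0.30, adjusted p 3.32e-07), with no overlap between sets. Cacna1h, encoding Cav3.2, was lower at 17.0, 20.2, 51.2 and 0 CPM against 85.9, 90.4, 89.0 and 120 (-2.25 ± 0.49, adjusted p 0.00011). Cacna1i, encoding Cav3.3, was lower on 4 UMIs (-2.37 ± 0.76, adjusted p 0.0179), and the sets overlapped. Hcn2, the pacemaker channel gene, did not pass (0.12 ± 0.52). The gene list thus had 1 higher and 2 lower of 4 tested. Cacna1h did not pass without unit 0 (-2.08, adjusted p 0.0872), nor Cacna1i without unit 2 (-2.25, adjusted p 0.072), and without unit 0 the list had 1 higher and none lower of 2 tested.

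Of 26 potassium channel genes tested, 3 were higher and 8 lower, with a median of -0.34. Kcnc2, which encodes the fast channel Kv3.2, had 374, 344, 384 and 351 CPM against 78.2, 62.9, 78.6 and 64.1 (2.34 ± 0.28, adjusted p 6.44e-15), and Kcnc1, encoding Kv3.1, was higher by 1.17 ± 0.25 (adjusted p 5.2e-05). Both were apart in every unit, and Kcnc2 was the more even. Kcnh7 and Kcnh1, of the ether-a-go-go family, were lower, at -1.90 ± 0.35 and -3.36 ± 0.75 (log2), and Kcnh7 did not pass without unit 0 (-1.20, adjusted p 0.112). Without unit 0 the list had 2 higher and 1 lower of 20 tested. Of 18 other sodium and calcium channel genes, none was higher and 6 were lower, among them Cacna1e, encoding Cav2.3 (-2.20 ± 0.37), and Scn3b, a sodium channel beta subunit (-1.83 ± 0.32). Without the endothelial-marker nuclei 3 were lower and Scn1a was higher (0.69, adjusted p 0.0135), and without unit 0 none was higher and 3 were lower of 17.

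AMPA-type glutamate receptors are the channels of fast excitation. Of 15 tested genes of AMPA and kainate receptors and their auxiliary subunits, 8 were lower, 2 higher and 5 did not pass (median -0.95). Without unit 0 the list had 5 lower and 1 higher of 13, and without the endothelial-marker nuclei 6 and 2 of 14. Gria1 had 424, 222, 282 and 220 CPM against 1046, 1772, 1968 and 1893 (-2.32 ± 0.23, adjusted p 7.34e-21). Gria2, whose subunit makes the channel impermeable to calcium, had 1195, 930, 794 and 966 CPM against 3201, 3744, 3907 and 3862 (-1.89 ± 0.21, adjusted p 1.25e-17). Gria3 (-1.36 ± 0.23) and the auxiliary subunit gene Cacng3 (-3.05 ± 0.54) were also lower. The 2 that were higher, named after their values were seen, were Gria4 at 437, 323, 410 and 351 CPM against 289, 112, 108 and 93.2 (1.31 ± 0.26, adjusted p 1.33e-05) and the kainate receptor gene Grik1 (1.99 ± 0.48, adjusted p 0.00074). In each of these 6 genes the sets were apart in every unit.

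**Figure D4:**
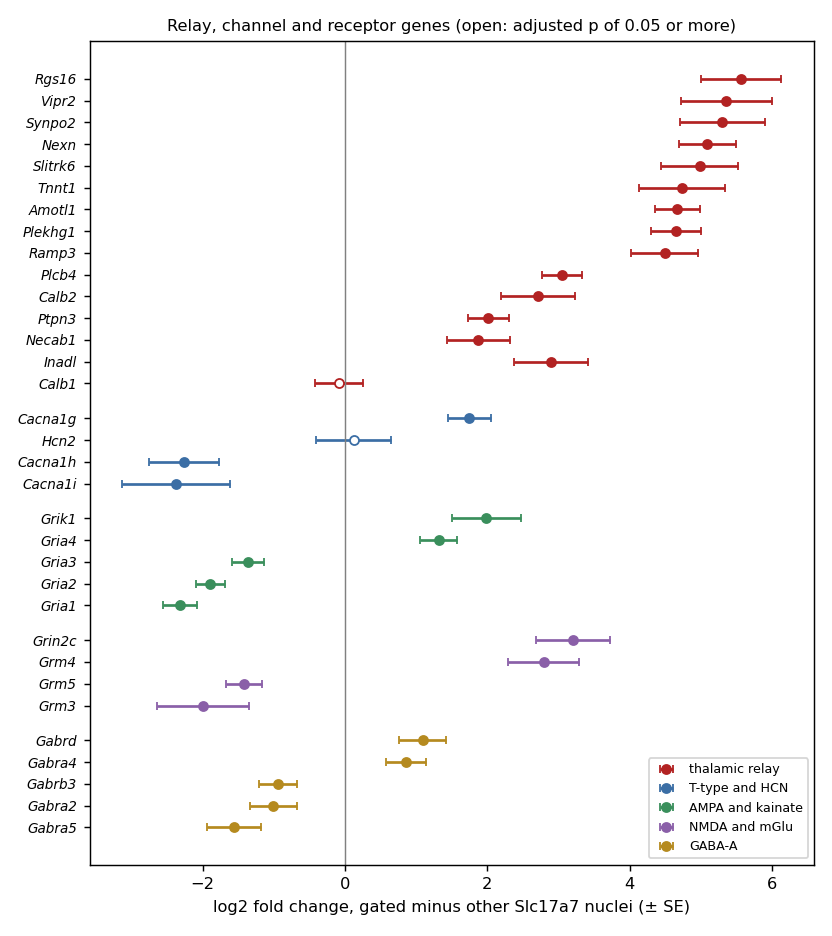
Difference of relay, channel and receptor genes between gated and other Slc17a7 nuclei (x axis, log2 fold change, bars ± SE of the edgeR fit), coloured by gene group, with open points for adjusted p of 0.05 or more. Calb1 and Hcn2 are open; Cacna1g is at 1.74 while Cacna1h is at -2.25, and Gria4 is at 1.31 while Gria1 is at -2.32. Genes outside the naming rule were added after their values were seen.

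Other glutamate and GABA receptor genes went both ways. Grin2c, an NMDA receptor subunit, had 94.6, 60.6, 51.2 and 87.8 CPM against 12.2, 1.96, 10.3 and 3.88 (3.20 ± 0.52, adjusted p 4.83e-08), and Grm4, encoding mGluR4, had 70.0, 60.6, 102 and 87.8 CPM against 10.9, 11.8, 12.4 and 7.77 (2.79 ± 0.50, adjusted p 8.63e-07). Both were clear of the comparison nuclei in every unit, but both could be tested only through their level in the Prkcd/Slc17a6 nuclei. They are among 4 such genes of the 11 tested NMDA and metabotropic glutamate receptor genes. Grm5, encoding the metabotropic receptor mGluR5, was lower (-1.42 ± 0.25). Of 12 GABA-A receptor genes tested, 2 were higher and 4 lower, with a median of 0.27. Gabrd, whose delta subunit carries tonic inhibition, was higher by 1.09 ± 0.33 (adjusted p 0.0114), and Gabra5 was lower by -1.56 ± 0.38 (adjusted p 0.000788). Gabrd did not pass without unit 0 (1.26, adjusted p 0.113) or unit 3 (1.00), and without unit 0 none of 11 GABA-A genes was higher and 3 were lower.

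Of 18 tested genes of protein kinase C and phospholipase C signalling, 2 were higher (Plcb4 and Rgs4) and 6 lower. Rgs4, another regulator of G-protein signalling, had 399, 162, 205 and 286 CPM against 148, 49.1, 39.3 and 50.5 (1.84 ± 0.30, adjusted p 7.8e-08). Prkca, encoding another protein kinase C isoform than the gate gene, had 28.4, 20.2, 51.2 and 22.0 CPM against 167, 145, 137 and 202 (-2.50 ± 0.41, adjusted p 7.32e-08), and Dgkg, a diacylglycerol kinase gene, was lower by -1.95 ± 0.42. Of 25 calcium-binding and calmodulin kinase genes, 2 were higher and 9 lower. Camk2d was higher (2.11 ± 0.32, adjusted p 1.72e-09), as was Pcp4, which encodes a calmodulin regulator (2.08 ± 0.27, adjusted p 1.25e-12). Hpca, encoding hippocalcin, had 102, 80.9, 76.8 and 87.8 CPM against 326, 499, 522 and 600 (-2.17 ± 0.28, adjusted p 2.42e-12), and Nrgn, encoding neurogranin, was lower by -2.12 ± 0.31.

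Of 27 tested axon guidance genes, 11 were lower, 1 was higher and 15 did not pass, with a median of -1.10. Epha5 had 184, 182, 0 and 132 CPM against 469, 589, 598 and 629 (-1.92 ± 0.27, adjusted p 5.4e-11), and Epha7, like it an ephrin receptor gene, was lower by -1.56 ± 0.28. Robo3, a Slit receptor gene, had 9.46, 0, 0 and 0 CPM against 210, 88.4, 89.0 and 66.0 (-4.60 ± 0.60, adjusted p 2.56e-12). The single higher gene, Sema6a, a semaphorin with a membrane anchor, had 155, 142, 154 and 198 CPM against 28.8, 15.7, 18.6 and 17.5 (2.84 ± 0.40, adjusted p 1.78e-10). Among 26 genes of netrin-G partners and synaptic adhesion, 6 were higher and none lower. Lrrtm1 (1.19 ± 0.30) and Lrrtm2 (1.17 ± 0.32), which encode postsynaptic partners of neurexins, were apart in every unit, and Tenm3 (1.45 ± 0.42) and Cntn4 (1.13 ± 0.37) were higher too. Without unit 0 none of these 4 passed, at 0.71, 1.03, 0.99 and 1.22, and none of the 20 genes of the list then tested was called. Of 14 cadherin genes 2 were lower, Cdh9 (-2.69 ± 0.53) and Pcdh20 (-1.87 ± 0.38).

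Of 26 listed receptors of the ascending modulatory systems, 17 were too sparse to test. Of the 9 tested, 6 were higher and 1 lower, but 8 of the 9 could be tested only through their level in the Prkcd/Slc17a6 nuclei. Over all 26, 8 had a higher pooled level in these nuclei and 18 a lower one, and without unit 0, 2 of 4 tested were higher. Adra1b, an adrenergic receptor gene, had 53.0, 101, 76.8 and 22.0 CPM against 12.8, 7.86, 8.28 and 7.77 (2.44 ± 0.51, adjusted p 4.95e-05). Chrna4, a nicotinic receptor subunit gene, had 70.0, 40.4, 51.2 and 65.9 CPM against 12.8, 7.86, 18.6 and 9.71 (2.31 ± 0.51, adjusted p 0.000143), and Hrh3, encoding a histamine receptor, was higher by 1.83 ± 0.46 with overlapping units. Chrm1, the muscarinic receptor gene typical of hippocampal and cortical neurons, was lower at 11.4, 40.4, 0 and 22.0 CPM against 82.7, 82.5, 78.6 and 117 (-2.55 ± 0.53, adjusted p 3.85e-05), a call lost without unit 0 (-2.0, adjusted p 0.113). Neuropeptides and their receptors showed 1 lower gene of 9 tested, Npy2r (-2.17 ± 0.74, on 4 UMIs), which did not pass without unit 1, 2 or 3 (-2.01, -2.11 and -1.89) and could not be tested without unit 0. Adarb2, listed with GABAergic neurons and encoding an RNA-editing enzyme relative, was higher at 250, 303, 154 and 176 CPM against 57.7, 57.0, 45.5 and 56.3 (2.04 ± 0.32, adjusted p 1.2e-08), while Gad1, which makes GABA, was lower (-2.02 ± 0.65) with a call lost without unit 1 (-1.91, adjusted p 0.0557).

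Activity-linked immediate early genes gave 4 lower and 2 higher of 12 tested. Arc had 7.57, 0, 0 and 43.9 CPM against 93.6, 96.2, 89.0 and 71.8 (-3.23 ± 0.59, adjusted p 1.28e-06), and Homer1 had 51.1, 40.4, 25.6 and 43.9 CPM against 198, 116, 78.6 and 83.5 (-1.75 ± 0.41, adjusted p 0.000465), both calls lost without unit 0 (-2.44 and -1.28). Nr4a2 was not seen in the Prkcd/Slc17a6 nuclei. Dusp1 was higher (2.09 ± 0.46, adjusted p 0.000122), but at 1.26 it did not pass without the endothelial-marker nuclei (adjusted p 0.0851). Without them the list had none higher and 5 lower of 11, Junb (-2.57) and Nr4a1 (-1.60) gaining calls, and without unit 0 it had 1 higher and 1 lower of 9.

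The largest falls came from genes with hardly a UMI in the Prkcd/Slc17a6 nuclei, and their size is therefore poorly known. Ratios here weight the units as the Prkcd/Slc17a6 nuclei do. Nr4a2, an orphan nuclear receptor gene, had 0 UMIs where the level of the other Slc17a7 nuclei in each unit would give 21.3, at least 7.09-fold lower with 3 counts over the group as the floor. Kcnh3, a potassium channel gene, had 1 UMI, a ratio of 76.0 (exact 95% Poisson interval of its count 13.6 to 3001), and Col19a1, a collagen gene, 1 UMI, a ratio of 59.0 (10.6 to 2331). Lamp5, known from upper-layer cortical and some GABAergic neurons, had 3 UMIs, a ratio of 23.2 (7.94 to 112). Slc26a4, Psrc1, Matn2 and Galnt3 had 1 UMI each and Kcnv1 and Cecr6 2 each. Dlgap2, a postsynaptic scaffold gene, had 11.3, 0, 0 and 0 CPM against 156, 118, 112 and 101 (-4.06 ± 0.56, adjusted p 4.58e-11). In units 1, 2 and 3 these genes were at 0 in nearly every case, where the Prkcd/Slc17a6 nuclei held 36315 to 47634 UMIs per unit.

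RNA of other compartments moved with the gate. The 4 tested endothelial markers were higher by 3.12 to 3.75, and none could be tested once the 9 endothelial-marker nuclei were out. Ly6c1 had 407, 1496, 0 and 1164 CPM, so unit 2, which has no such nucleus, was at 0. All 5 mitochondrial transcripts tested were higher, and 1 of 4 without the endothelial-marker nuclei. The ribosomal transcript mt-Rnr2 had 577, 1496, 512 and 1867 CPM against 264, 552, 610 and 419 (1.20 ± 0.21, adjusted p 6.72e-07) and turned to -0.22 (adjusted p 0.721) without those nuclei, whereas mt-Nd1 remained higher at 1.54 (adjusted p 0.0274). Of the oligodendrocyte list, Mal was higher (1.32 ± 0.33) and did not pass without them (0.57, adjusted p 0.505) or without unit 0 (1.27, adjusted p 0.0876). Glul, a glial glutamine synthetase gene, was 0.97 ± 0.28 and turned to -0.13 (0.80 without unit 1, adjusted p 0.13). In contrast, Shox2, Nexn, Rgs16, Rora, Cacna1g and Gria1 kept their direction and call, at 5.65, 5.29, 5.89, 4.15, 1.93 and -2.20.

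**Figure D5:**
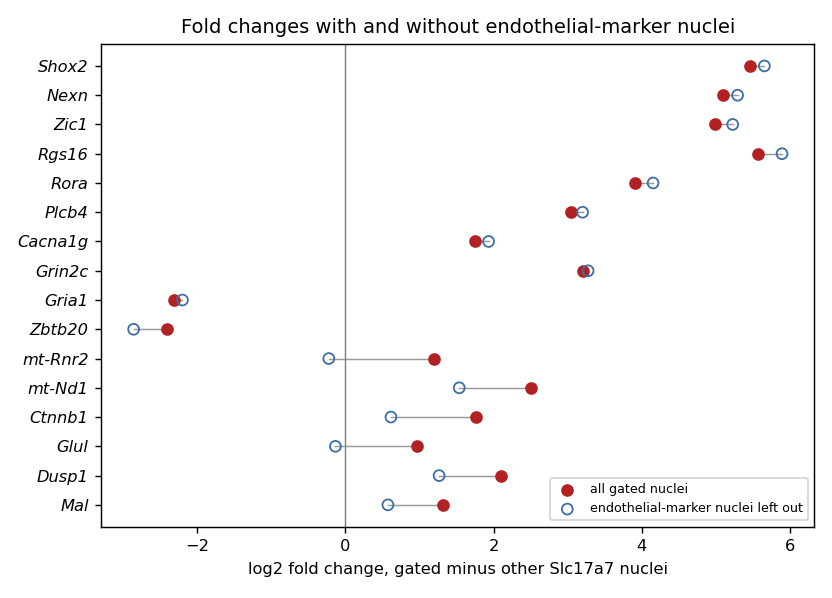
Difference between gated and other Slc17a7 nuclei (x axis, log2 fold change) for 16 genes with all 165 gated nuclei (filled) and with endothelial-marker nuclei left out of both sets (open). Thalamic genes such as Shox2 move little (5.45 to 5.65), while mt-Rnr2 passes from 1.20 to -0.22 and Ctnnb1 from 1.76 to 0.61.

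The second comparison asked what separates the Prkcd/Slc17a6 nuclei from other VGLUT2 neurons of the same libraries, taken as 78 nuclei with at least 2 Slc17a6 UMIs and no Prkcd or Lef1 UMI. These hold 35044 to 70602 UMIs per unit, so 643 genes could be tested, of which 34 (5.29%) were higher and 10 (1.56%) lower in the Prkcd/Slc17a6 nuclei by edgeR, or 6.84% in either direction. Both comparisons share the Prkcd/Slc17a6 nuclei. Of the 78 other Slc17a6 nuclei, 38.5% held a Tcf7l2 UMI and 35.9% a Ntng1 UMI. Their definition admits nuclei that missed the gate only for want of a Prkcd or Lef1 UMI, so the 2 sets need not be separate cell types. Plekhg1 had 397, 288, 333 and 331 CPM against 46.5, 0, 0 and 28.2 (4.29 ± 0.62, adjusted p 4.74e-05). Ptpn3, a tyrosine phosphatase gene, had 319, 244, 333 and 331 against 46.5, 41.8, 22.3 and 28.2 (3.02 ± 0.51, adjusted p 0.000183). Kitl, the ligand of the Kit receptor, had 365, 399, 282 and 535 CPM against 46.5, 83.6, 44.6 and 0 (2.95 ± 0.47, adjusted p 8.24e-05). In this comparison Kitl could not be tested without the endothelial-marker nuclei. Cpne7 (2.54 ± 0.33), Amotl1 (2.47 ± 0.39) and Clmn (2.19 ± 0.33) followed. These 6 were picked from genes whose sets did not overlap in any unit, so their separation is no result. Cpne7 is listed with genes of hippocampal dentate and CA neurons. The counts behind the other Slc17a6 nuclei were small, from 3 UMIs for Plekhg1 to 23 for Clmn.

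Rora was also higher than in the other Slc17a6 nuclei, at 818, 753, 793 and 840 CPM against 349, 181, 201 and 197 (1.78 ± 0.28, adjusted p 7.24e-05), and so was Kcnc2 (1.80 ± 0.39, adjusted p 0.00346). Plcb4 (0.80 ± 0.34, adjusted p 0.205), Gria4 (0.34 ± 0.28) and Kcnc1 (-0.20 ± 0.25) did not pass. Gria2 was lower here as well, at 1173, 1019, 793 and 1120 CPM against 1768, 2745, 1828 and 2452 (-1.07 ± 0.20, adjusted p 0.000578). Neat1, a nuclear long non-coding RNA, was the gene with the largest fall, with 156, 88.6, 76.8 and 102 CPM against 884, 293, 267 and 705 (-2.34 ± 0.33, adjusted p 4.25e-05). Ryr2, an intracellular calcium release channel gene (-1.52 ± 0.36), Podxl2 (-1.32 ± 0.36), Dclk1 (-1.22 ± 0.29) and Nap1l5 (-0.93 ± 0.27) were lower too. Being lower in every unit was again a condition for naming them. Their calls are decided by 1 unit: without unit 0 they stood at -1.83, -1.38, -1.48 and -0.89, none past the threshold. Kcnc2 did not pass without unit 3 (1.67, adjusted p 0.0651). The difference of mt-Rnr2 (1.71 ± 0.29) was -0.0008 without the endothelial-marker nuclei. Over the 13 midbrain genes the other Slc17a6 nuclei had 140 CPM and the Prkcd/Slc17a6 nuclei 71.6 CPM, and their relay genes summed to 786 CPM against 2876.

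A comparison within the gate, of nuclei with Lef1 and no Prkcd against those with Prkcd and no Lef1, could not be run. Only 6, 5, 3 and 2 nuclei of units 0 to 3 carried Lef1 alone, and 50, 6, 5 and 5 carried Prkcd alone, while 68, 5, 5 and 5 carried both, and no unit reached the 10 nuclei required in each set.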

How the data were processed

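The values deposited are UMI counts without normalization, 1 row for each of 23589 genes and 1 column for each of 13313 nuclei, and all are whole numbers. The authors used STAR, Seurat and the build mm10, per the submitters' processing notes. UMI collapsing, the use of intronic reads and the choice of nuclei are not given in the sources used here. The prefix of a column's name gave its library, and 1689 columns that match no sample label were not used.

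The gate, its members and all gene lists were chosen with earlier results of these data known. Counts were summed per unit and set, with at least 10 nuclei in each. They were tested in edgeR 4.0.16 by its quasi-likelihood test, after filterByExpr and with TMM factors, and p-values were adjusted by Benjamini-Hochberg over all genes tested, under R 4.3.3. The unit was a block, since both sets of a unit come from the same libraries. Gate genes and Slc17a7 stayed in library totals and out of the tests. Sets of other nuclei exclude members. Class markers counted as present at 4 UMIs from 3 genes. Oligodendrocyte nuclei, defined by 7 markers in the same way, gave the level in a cell type that should lack neuronal genes.

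Genes named had an adjusted p under 0.05, at least 20 CPM in the higher set and no overlap between units. The 12 largest folds per direction were taken in the first comparison and 6 in the second. Up to 4 genes per list with the smallest p and every tested transcription factor of 2 lists were added, and further genes were chosen after their values were seen. A few genes that the rule names are not reported here. Positions are from GENCODE vM21 (mm10) and promoters from RefSeq (GRCm38.p6). The UMI sums, 36315 to 528775 per unit of members, limit precision. In simulated counts 18% of genes changed by 1 and 82% of those changed by 2 (log2) were recovered over 8791 genes in the first comparison, and 71% and 98% over 643 genes in the second. False calls were 1.96% and 2.31% of calls. The counts were drawn from edgeR's own fitted model, so these rates do not test that model. Equal numbers of genes were changed in both simulations, a far larger share of the 643 than was called in the data. The recovery given for the second comparison may therefore be too high. Doublets were scored with 30 neighbours and stay in the main results. Alternatives were DESeq2 1.42.0, RLE factors, no low-count filter, no block, each unit left out, separate 0a and 0b libraries, thinning to 600 UMIs and other sets of nuclei. Leaving out nuclei above 10000 UMIs, endothelial-marker nuclei or nuclei with any non-neuronal markers was added after the data were seen.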

Additional observations from a re-analysis of the deposited data

Results flagged for a closer look

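Among 259 groups of 4 units examined, 41 had 1 unit far from the other 3. For normally distributed values the rule used would flag about 1 in 20 by chance. It always flags a gene with UMIs in 1 unit only, so that rate does not hold for sparse genes. The count of 41 is therefore no measure of an excess over chance. Prkcd/Slc17a6 nuclei made up 5.22% of the nuclei of unit 0 and 1.03% to 1.52% of those of the other hippocampal units.

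In the Prkcd/Slc17a6 nuclei, several genes had UMIs in unit 0 and none in units 1, 2 and 3, whose sums are smaller. These were Kcnh3, Col19a1, Slc26a4, Psrc1, Matn2 and Galnt3 at 1.89 CPM each, Kcnv1 and Cecr6 at 3.78, Npy2r at 7.57, Robo3 at 9.46, Dlgap2 at 11.3, Cdh9 at 17.0, Cacng3 at 20.8 and Zbtb18 at 37.8. Foxp2 was at 96.5 CPM in unit 0 and at 20.2 to 25.6 in the rest, and Neat1 at 159 against 76.8 to 87.8. In unit 1, Satb1 was at 101 CPM (22.0 to 26.5 in the rest) and Cacna1i at 40.4 (0 to 3.78). In unit 3, Podxl2 was at 43.9 CPM, below 149 to 162 in the rest.

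In the other Slc17a7 nuclei, unit 0 stood apart for more genes than units 1, 2 or 3 did. It was high in Cux2 (103 CPM against 10.3 to 17.7), Rora (84.6 against 35.2 to 40.8), Rgs4 (148 against 39.3 to 50.5), Robo3 (210), Kcnh3 (133), Kcnh7 (313), Dclk1 (849), Zic4 (18.6), Adra1b (12.8) and Mrvi1 (0.641), and low in Zbtb20 (1596 against 3162 to 3331), Epha7 (287) and Nr4a2 (24.4). Unit 1 was high in Plekhg1 (17.7) and low in Psrc1 (21.6). Unit 2 was low in Adarb2 (45.5). Unit 3 was high in Cacna1h (120), Chrm1 (117) and Ebf1 (13.6) and low in mt-Nd1 (7.77). In the other Slc17a6 nuclei, Rora was at 349 CPM in unit 0 and at 181 to 201 in the rest.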

How the results depend on the processing

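In the first comparison (1076 called, 499 higher and 577 lower), DESeq2 called 584 genes (310 higher, 274 lower), and 202 (74 and 128) of 2590 were called after thinning to 600 UMIs. Leaving out 1 unit at a time gave 507 to 1063 (222 to 559 higher, 285 to 504 lower), the lowest without unit 0. Without endothelial-marker nuclei 326 were higher. The pairing by unit changed little: with no replicate block 1239 genes were called. In the second (44 called, 34 higher and 10 lower), DESeq2 called 19 (17 and 2), no filter on low counts 160 (149 higher), separate libraries 0a and 0b, which leave 3 units, 17 (14 and 3), and thinning 4 (3 and 1) of 33. Leaving out 1 unit gave 17 to 71 (14 to 57 and 3 to 14), leaving out nuclei above 10000 UMIs 6 lower, and no replicate block 43. The cause of these changes was not tested, apart from the smaller number of genes or units stated. The gate with at least 6 UMIs from 4 genes held 103 nuclei and left only unit 0 with 10 of them, so its tests were not run.

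Of the genes called in the first comparison, 25 turned direction without endothelial-marker nuclei, 22 without any non-neuronal markers, 7 after thinning, 1 without unit 0 and 1 against nuclei with 2 Slc17a7 UMIs, and in the second 3 and 3 under the first 2 of these. Among genes named in the text these were Glul (-0.13 without endothelial-marker nuclei, -0.32 without any non-neuronal markers) and mt-Rnr2 (-0.22 and -0.58, and in the second comparison -0.0008 and -0.52). Of 146 genes named by the rule, 126 kept their side of the threshold in the first comparison with DESeq2 and 146 with RLE factors. Without unit 0, 90 did, 20 lost the call and 35 could not be tested, and after thinning 49, 16 and 81. Few UMIs in units 1, 2 and 3 limit all values of genes under about 20 CPM.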
